A study of Mus musculus with 40 samples.

Results

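The 9 genes described here are named for the dentate granule cells and the pyramidal neurons of the hippocampus: Prox1, C1ql2, C1ql3, Dsp, Tdo2, Lct, Neurod6, Cabp7 and Zbtb20. They were picked by symbol with their pattern over brain regions already in view, so their regional levels are a description and carry no test. Of the 9, 8 are among the 19505 genes that the platform annotation names, each with a single row, and all 8 passed the filter on dim genes. Zbtb20, a repressor of transcription in hippocampal neurons, is not named there, so its expression was not analysed here and only its promoter sequence was read. The arrays cover amygdala, cerebellum, hippocampus, prefrontal cortex and striatum of mice labelled as C56BL/6, aged 8 to 10 weeks, kept on chow at room temperature. Each mouse carried either the Ala92D2HY or the Thr92D2HY genotype, that is, alanine or threonine at residue 92 of the type 2 deiodinase, the Dio2 product that turns thyroxine into active T3. There were 40 arrays, 4 for either genotype in each region, and they are named below by genotype and label number. The labels do not say which arrays share an animal or whether animals were pooled, so the p-values rest on array-to-array spread that could be technical.

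The hippocampus holds a simple excitatory relay. Granule cells of the dentate gyrus receive the input from the cortex and send mossy fibres to CA3 pyramidal neurons, which in turn contact CA1 pyramidal neurons. Prox1 encodes the homeobox factor that sets and keeps granule cell identity. C1ql2 and C1ql3 encode secreted proteins with a C1q domain that granule cells release at mossy fibre synapses, where they gather kainate receptors, and that bind the adhesion receptor encoded by Adgrb3. Dsp encodes desmoplakin, which ties desmosomes to intermediate filaments, Tdo2 the dioxygenase that opens the tryptophan ring at the entry to the kynurenine pathway, and Lct the enzyme lactase; in mouse brain all 3 are known as granule cell markers. Neurod6 encodes a basic helix-loop-helix factor of forebrain pyramidal neurons, and Cabp7 a calcium sensor of Golgi membranes, calneuron 2.

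Promoter sequence was available from RefSeq for 9 of the 9 genes, with 10 start sites in build GRCm38.p6. The 250 bases before the start are shown for 4 of them, namely the paralogs C1ql2 and C1ql3, whose regional levels differ, Prox1 for its E-boxes and Tdo2 for its hormone receptor half-site. Sequences run 5′ to 3′ on the strand of the gene, and capitals mark an E-box (CANNTG, a basic helix-loop-helix site, on both strands) or the half-site of thyroid hormone receptors (AGGTCA, or TGACCT on the opposite strand).
Prox1, chr1:190170828-190171077, minus strand: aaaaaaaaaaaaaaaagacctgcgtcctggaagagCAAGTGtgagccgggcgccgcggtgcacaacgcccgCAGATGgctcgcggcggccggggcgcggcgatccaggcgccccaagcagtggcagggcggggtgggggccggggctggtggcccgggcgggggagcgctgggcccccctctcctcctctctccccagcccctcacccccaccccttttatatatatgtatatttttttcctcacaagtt
C1ql2, chr1:120340332-120340581, plus strand: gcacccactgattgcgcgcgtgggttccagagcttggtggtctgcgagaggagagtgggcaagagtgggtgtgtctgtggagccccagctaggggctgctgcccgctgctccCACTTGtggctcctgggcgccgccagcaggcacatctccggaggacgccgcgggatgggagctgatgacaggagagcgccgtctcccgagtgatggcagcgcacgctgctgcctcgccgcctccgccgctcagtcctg
C1ql3, chr2:13010865-13011114, minus strand: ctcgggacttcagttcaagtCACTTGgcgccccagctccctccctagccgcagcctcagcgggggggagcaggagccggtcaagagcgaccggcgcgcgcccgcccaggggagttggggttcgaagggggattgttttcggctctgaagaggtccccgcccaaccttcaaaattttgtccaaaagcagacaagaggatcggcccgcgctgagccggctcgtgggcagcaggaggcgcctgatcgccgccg
Tdo2, chr3:81975729-81975978, minus strand: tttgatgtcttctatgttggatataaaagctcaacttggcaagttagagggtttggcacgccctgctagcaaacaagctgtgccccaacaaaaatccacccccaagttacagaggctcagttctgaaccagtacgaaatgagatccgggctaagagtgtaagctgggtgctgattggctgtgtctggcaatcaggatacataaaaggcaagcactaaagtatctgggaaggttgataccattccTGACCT

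Prox1 had 2 of the 10 start sites, and its window not shown held none of the motifs named here. Its window shown had the E-box form that NeuroD factors prefer, CAGATG, at -179 to -174 from the start. It was the only one of the 10 windows with CAGATG or its reverse complement CATCTG. Of 32851 promoter windows of the same length in the table, 14.4% held that motif. Tdo2 had the thyroid hormone receptor half-site in reverse at -6 to -1, and again it was 1 of the 10 windows, beside 14% of all windows. An E-box of any form, which includes CAGATG, was present in 7 of the 10 windows and in 66.2% of all windows. C1ql2 had 1 at -138 to -133 and C1ql3 1 at -230 to -225. The TATA motif TATAAA, on either strand, was in 2 of the 10 windows, those of Prox1 and Tdo2, beside 12.4% of all windows. These matches describe the letters of the windows.

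Values below are log2 signals from the deposited table. The median of the 5222 negative control rows of an array lay between 5.73 and 6.35, and a level under it was taken as not above background. By construction as many control rows lie above this cut as below it, so a value just above it is weak evidence of a signal. The control medians were higher on cerebellum arrays (6.20 to 6.35) than on arrays of the other regions (5.73 to 6.02). Levels were not compared between genes, since each gene has its own probes.

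C1ql2 was above background on every hippocampus array. It read 8.42, 10.51, 8.58 and 8.53 on Ala hippocampus arrays 17 to 20 and 11.12, 10.47, 7.86 and 9.15 on Thr arrays 21 to 24, a mean of 9.33 ± 1.20 (SD, n = 8). Amygdala came next at 5.63 ± 0.92, followed by striatum (4.52 ± 0.41), cerebellum (4.23 ± 0.16) and prefrontal cortex (4.09 ± 0.26), whose arrays overlapped. All hippocampus arrays were above every other array, though narrowly, with the lowest at 7.86 and the highest elsewhere at 7.72 on Ala amygdala array 2. Outside the hippocampus, C1ql2 was above background on 2 of 32 arrays, Ala amygdala arrays 2 and 4, so the order of the other regions lies within background.

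Prox1 was above background on all 40 arrays and followed another order. Its hippocampus values were 12.69, 13.63, 11.87 and 12.40 in Ala and 14.28, 13.43, 12.45 and 13.03 in Thr, a mean of 12.97 ± 0.78 (SD, n = 8). Cerebellum was second at 11.57 ± 0.21, and its highest array (11.95) exceeded the lowest hippocampus array (11.87). Striatum (9.45 ± 0.33), amygdala (8.40 ± 0.55) and prefrontal cortex (7.40 ± 0.47) were lower, with every cerebellum array above every striatum array and every amygdala array above every prefrontal one. Striatum and amygdala overlapped.

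Dsp, Tdo2 and Lct gave dim signals that were above background on hippocampus arrays and on no others. Dsp read 6.27, 7.10, 5.06 and 6.81 in Ala hippocampus and 7.53, 7.49, 5.91 and 6.39 in Thr. It was above background on 6 of these 8 arrays, and the other regional means lay between 3.57 and 3.70. Lct read 6.92, 7.25, 6.61 and 6.79 in Ala and 8.00, 7.59, 6.53 and 6.58 in Thr, and its next region was cerebellum at 4.11 ± 0.27. Tdo2 read 5.99, 6.51, 5.37 and 5.56 in Ala and 6.83, 6.52, 4.94 and 5.84 in Thr, which was above background on 5 of 8 arrays. Its cerebellum mean of 4.61 ± 0.24 was second and stood apart from striatum (3.42 ± 0.19), with no overlap between arrays. Since the 3 genes were below background on all 32 arrays of other regions, their regional differences are measured against background and not against a level. Lct passed the filter on dim genes through its 8 hippocampus arrays only, and Dsp through these and 1 further array.

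C1ql3, the paralog of C1ql2, was not highest in the hippocampus. It had its highest mean in amygdala (14.70 ± 0.53, SD, n = 8), followed by hippocampus (13.94 ± 0.42) and prefrontal cortex (13.76 ± 0.53), and these regions overlapped with their neighbours in the order. Cerebellum (9.51 ± 0.49) and striatum (8.18 ± 1.55) were lower, and every prefrontal array was above every cerebellum array. Across the 10 group means the Pearson correlation of C1ql3 with C1ql2 was 0.464, while that with Neurod6 was 0.813; these points share arrays and are given as a description.

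Neurod6 was highest in the hippocampus, at 15.26, 15.73, 14.89 and 14.98 in Ala and 15.36, 15.30, 15.00 and 14.71 in Thr (mean 15.16 ± 0.32, SD, n = 8). Prefrontal cortex (12.30 ± 0.71) and amygdala (11.03 ± 1.53) came next, then striatum (7.86 ± 1.83) and cerebellum (7.05 ± 0.87), and each of these overlapped with its neighbour in the order. The spread between arrays was thus narrow in the hippocampus and wide in amygdala and striatum. Cabp7 read 12.53, 13.15, 12.49 and 12.45 in Ala hippocampus and 13.45, 13.53, 12.58 and 13.03 in Thr, a mean of 12.90 ± 0.44. Cerebellum followed at 9.54 ± 0.27, then amygdala (8.11 ± 1.16), which overlapped it on Ala array 2, with striatum (6.50 ± 0.27) and prefrontal cortex (6.44 ± 0.54) last and overlapping.

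**Figure D1:**
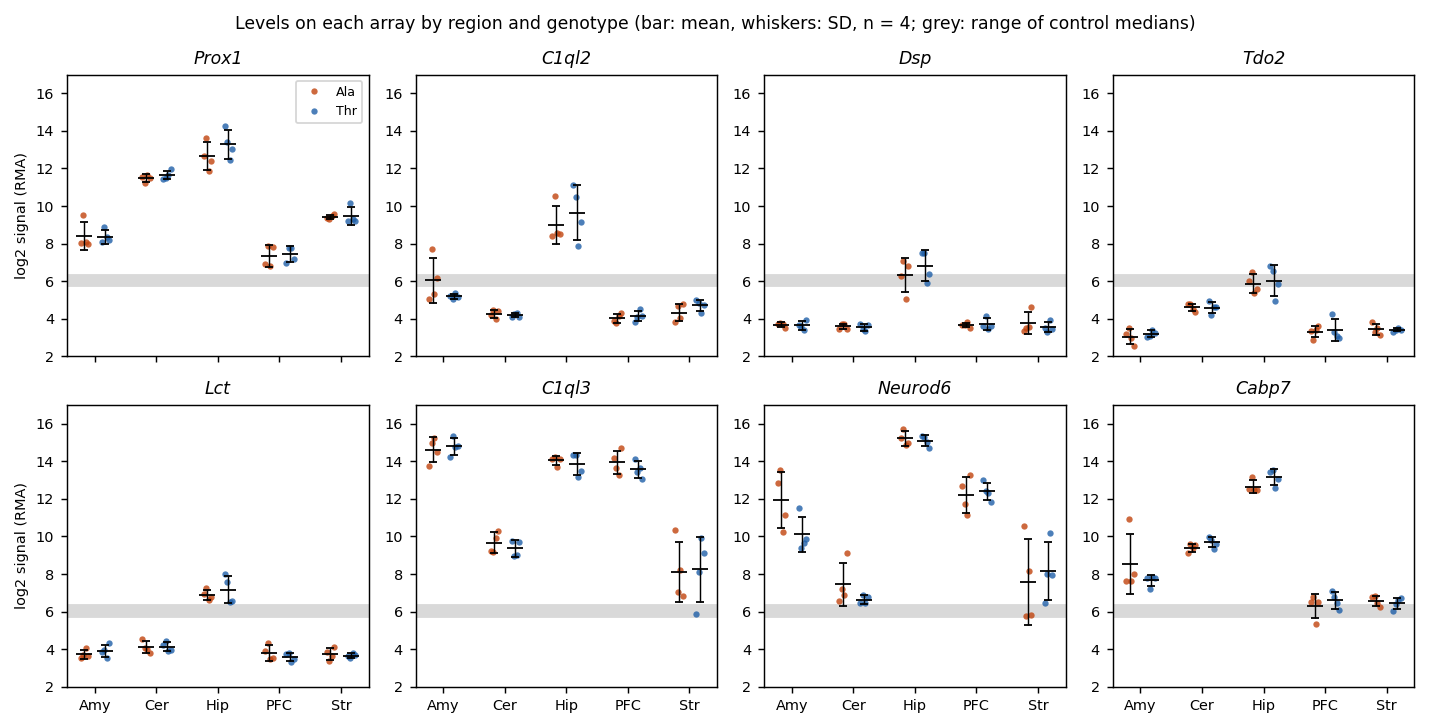
Log2 signal of the 8 genes (vertical axis) on each of 40 arrays, by region (Amy amygdala, Cer cerebellum, Hip hippocampus, PFC prefrontal cortex, Str striatum) and genotype (red Ala, blue Thr); black bars and whiskers are the mean and SD of 4 arrays, and the grey band spans the negative control medians, 5.73 to 6.35. C1ql2, Dsp, Tdo2 and Lct rise above the band only in the hippocampus, apart from C1ql2 on Ala amygdala array 2 (7.72), while C1ql3 is also high in amygdala and prefrontal cortex.

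Over the 10 group means, the Pearson correlation of Dsp with Lct was 0.985, but 8 of the 10 points of either gene are background, so the value reflects the hippocampus points alone. The same holds for C1ql2, apart from the Ala amygdala arrays named above. Tdo2 was also background outside the hippocampus, but its cerebellum mean (4.61) stood apart from striatum (3.42). Its correlations, such as 0.934 with Prox1 and 0.932 with Cabp7, therefore reflect the cerebellum points too. Among the genes with levels above background in most regions, Prox1 and Cabp7 had r = 0.889, C1ql3 and Neurod6 0.813, and Prox1 and C1ql3 -0.184. Cerebellum was second to hippocampus for Prox1 and Cabp7, and also for Tdo2 and Lct, where its arrays were below background. The control medians were also higher in cerebellum, and their part in the ranks of Tdo2 and Lct was not tested. Among all other tested genes, the nearest to C1ql2 were Rasd1 (r = 0.990), a small GTP-binding protein induced by dexamethasone, and Syna (r = 0.986), a syncytin gene. Those nearest to Dsp were Cebpd (r = 0.989), a leucine zipper transcription factor, and Iyd (r = 0.988), the deiodinase that recovers iodide from iodotyrosines. Neurod6 was closest to Zbtb16 (r = 0.990) and Satb1 (r = 0.985), Cabp7 to Tspan18 (r = 0.989) and Exoc6b (r = 0.978), and C1ql3 to Glrx (r = 0.992) and Ccdc3 (r = 0.990). Prox1 was closest to Jph1 (r = 0.965) and Zhx2 (r = 0.949), Tdo2 to Il1r1 (r = 0.969) and Usp25 (r = 0.965), and Lct to Klf13 (r = 0.986) and Olfr61 (r = 0.984). The 10 points share regions and arrays, and the values describe the ranking only. Those for C1ql2, Dsp and Lct rest on the hippocampus points, and those for Tdo2 on hippocampus and cerebellum points.

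Marker genes of striatum and cerebellum were high where the labels place them, while the amygdala and neocortex lists did not fully separate their regions. Amygdala genes averaged as low as 8.39 on an Ala amygdala array and up to 8.65 on a Thr hippocampus array. Neocortex genes reached 10.80 on an Ala amygdala array, against 10.14 to 10.77 on prefrontal arrays. The mean of 6 striatum genes was 15.30 to 16.09 on striatum arrays and 7.57 to 8.13 on hippocampus arrays, and that of 8 cerebellum genes was 14.24 to 14.73 on cerebellum arrays and 5.44 to 5.94 on hippocampus arrays. Thalamus genes averaged 10.45 and 9.85 on Thr hippocampus arrays 23 and 24, against 7.62 to 8.21 on the other 6 hippocampus arrays. Choroid plexus genes averaged 8.69 on Ala array 17, 8.42 on Thr array 24 and 7.05 on Thr array 23, against 5.64 to 6.09 on the remaining 5.

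The circuit around the 8 genes was described with lists of other genes, tested as hippocampus minus the mean of the other 4 regions. The lists were chosen with earlier results of these data known, so their counts are a description and not an independent test. In that comparison 3.57% of the 14978 genes tested were called higher and 2.34% lower, at an adjusted p under 0.05 and a difference of at least 1 log2 unit in limma. Of 15 tested dentate granule genes, 10 were higher and 1 lower, with a median difference of 1.58 beside -0.03 over all genes. Sema5a, an axon guidance protein, was higher by 2.95 ± 0.21 (SE), Npnt, which encodes the matrix protein nephronectin, by 2.92 ± 0.20, Bdnf, a neurotrophin, by 2.75 ± 0.26 and the cation channel gene Trpc6 by 2.64 ± 0.17. The 1 lower gene, the calcium buffer Calb1 (-1.80 ± 0.20), is also made by Purkinje cells and averaged 15.93 in the cerebellum against 11.14 in the hippocampus.

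Of 7 tested CA3 genes 6 were higher, with a median of 1.87, among them Cpne4 (3.32 ± 0.26), Dkk3 (3.05 ± 0.22), a secreted modulator of Wnt signalling, and Grik4 (2.37 ± 0.17), a kainate receptor subunit. Of 8 CA1 genes 7 were higher, with a median of 1.97, among them Spink8 (3.20 ± 0.23), Gpr161 (2.54 ± 0.17) and Fibcd1 (2.16 ± 0.22). No CA2 gene of 6 was higher and 2 were lower, Pcp4 (-1.75 ± 0.15) and Cacng5 (-1.46 ± 0.19). Of 5 mossy cell genes none was higher and 2 were lower, Calb2 (-2.38 ± 0.25) and Drd2 (-2.24 ± 0.35), and of 6 genes of immature neurons 1 was lower, Eomes (-1.96 ± 0.32). Several of these genes are strongly made elsewhere; Drd2, the dopamine D2 receptor, averaged 14.25 in the striatum. Of 7 excitatory neuron transcription factors, 5 were higher, among them Lhx2 (2.75 ± 0.25) and Neurod2 (2.22 ± 0.17), a relative of Neurod6.

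Partners and pathway relatives of the 8 genes mostly had no hippocampal preference. Of the 8 tested members of the C1ql and cerebellin family and their receptors, 2 were higher, Grik4, which is also on the CA3 list, and Cbln4 (1.41 ± 0.30), and 2 were lower, Cbln1 (-2.25 ± 0.39) and the presynaptic neurexin Nrxn3 (-1.18 ± 0.13). Adgrb3, the C1ql receptor gene, had a difference of 0.07 ± 0.07 and Grik2, which encodes the other kainate subunit of mossy fibre synapses, one of -0.54 ± 0.08. Among 6 tested desmosome genes, Pkp2, which encodes the plakophilin that binds desmoplakin, was higher by 2.13 ± 0.18 and Jup, which encodes plakoglobin, was lower (-1.84 ± 0.20). None of 7 tested genes of tryptophan and kynurenine metabolism and none of 5 tested relatives of Cabp7 was called in either direction.

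**Figure D2:**
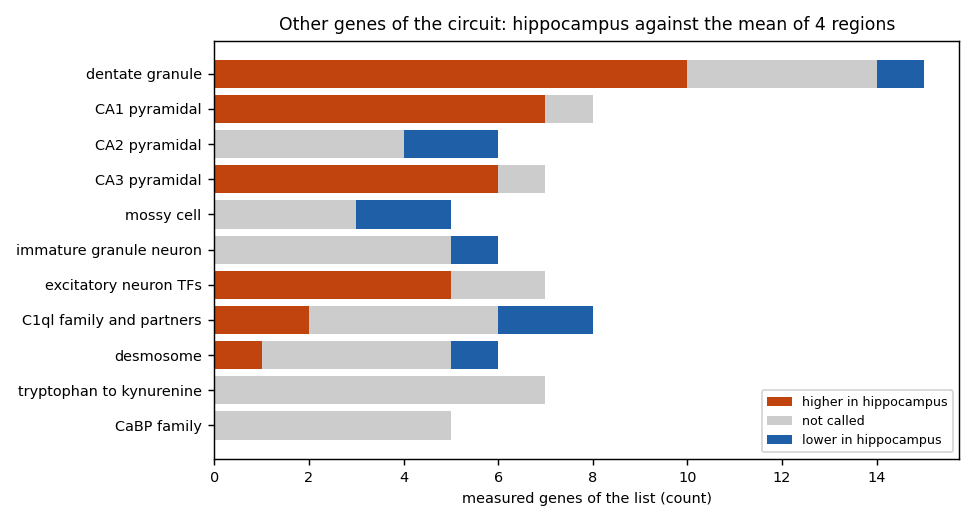
Number of tested genes per list (horizontal axis, count) called higher (red), lower (blue) or not called (grey) in the hippocampus against the mean of 4 regions. The dentate granule list has 10 of 15 higher, CA3 6 of 7 and CA1 7 of 8, while CA2, mossy cell, immature neuron, kynurenine and CaBP lists have 0 higher. The lists were chosen with earlier results of these data known, so the counts are a description.

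The comparison that the choice of genes did not use was that between genotypes. In the hippocampus, 0 of the 8 genes passed an adjusted p under 0.05 in limma, and 0 of 14978 genes did (0% called); at an unadjusted p under 0.05 there were 0 of the 8 and 471 in all. The Ala mean was lower for 6 of the 8 genes, beside 48.9% of all genes tested, and the median difference was -0.39, beside 0.01 over all genes. The 8 genes moved together on several arrays, as given below, so this is not a count of independent genes. In bulk tissue, fewer cells of a type and less RNA per cell cannot be told apart.

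Prox1 was 12.65 ± 0.74 in Ala and 13.30 ± 0.77 in Thr hippocampus (SD, n = 4), a difference of -0.65 ± 0.34 (SE, adjusted p = 1.00). C1ql2 was 9.01 ± 1.00 and 9.65 ± 1.45, a difference of -0.64 ± 0.45. The differences of Dsp, Cabp7, Lct and Tdo2 were -0.52 ± 0.31, -0.49 ± 0.40, -0.28 ± 0.25 and -0.17 ± 0.29. C1ql3 and Neurod6 had slightly higher Ala means, with differences of 0.22 ± 0.55 and 0.12 ± 0.72. For all 8 genes the Ala and Thr arrays overlapped in the hippocampus, where 2.73% of all genes tested had groups that did not. All 8 adjusted p-values rounded to 1.00. The SEs and p-values rest on a spread per gene pooled over the 5 regions, and not on hippocampal spread alone. C1ql2 had SDs of 0.16 to 0.92 in the other regions against 1.20 in hippocampus (n = 8). Neurod6 went the other way, with 0.71 to 1.83 elsewhere against 0.32 in hippocampus.

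**Figure D3:**
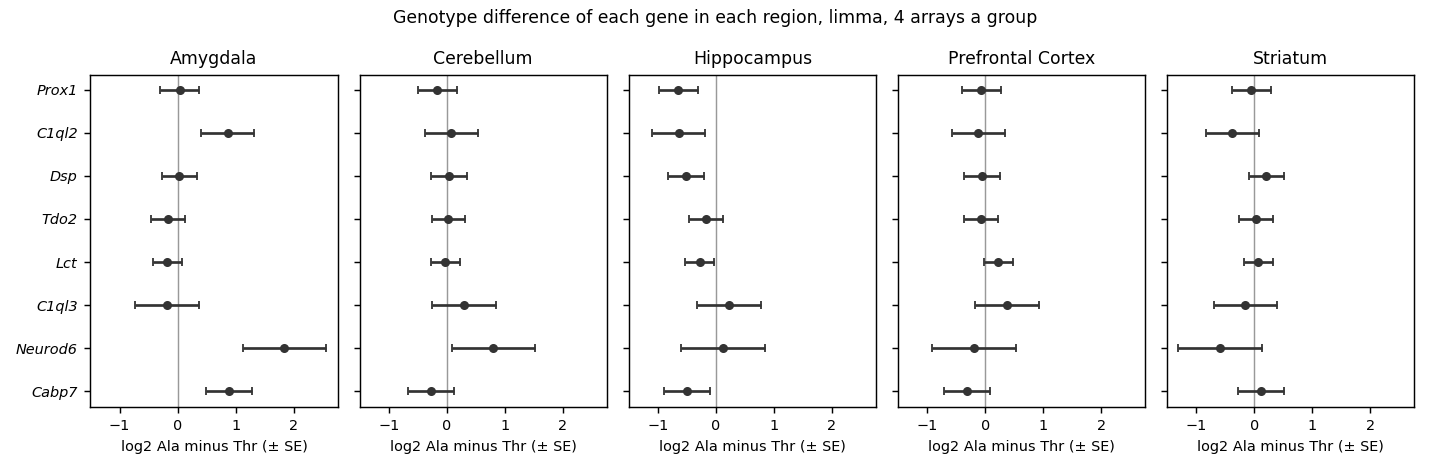
Log2 Ala minus Thr (horizontal axis) for the 8 genes in each region. Points are limma estimates and bars their SE (4 arrays a group, spread pooled over regions). Hippocampal values run from -0.65 for Prox1 to 0.22 for C1ql3, and the value farthest from 0 is that of Neurod6 in the amygdala, 1.84; none passed the threshold.

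What varied most in the hippocampus was the array, within either genotype. All 8 genes were above the mean of the 8 hippocampus arrays on Ala array 18 and on Thr arrays 21 and 22, with median deviations of 0.55, 0.92 and 0.56. All 8 were below it on Ala array 19 and on Thr array 23, with median deviations of -0.50 and -0.59. C1ql2 moved the most, from 1.79 above the mean on Thr array 21 to 1.47 below it (deviation -1.47) on Thr array 23. Neurod6 moved less, with deviations from -0.44 to 0.58.

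The other dentate granule genes, none of them among the 8, were also high on those arrays. The mean of 15 such genes was 10.36 on Ala array 18, 10.49 on Thr 21 and 10.15 on Thr 22, against 9.26 to 9.80 on the other 5 arrays. On Thr array 21 each of the 15 was above its hippocampus mean, while 1 was on Ala array 19, 1 on Thr array 24 and 0 on Thr array 23. The 7 CA3 genes were ordered in the same way at the top, at 10.49, 10.90 and 10.37 on arrays 18, 21 and 22 against 9.52 to 10.11. The CA1 list was not, with 9.83, 9.45 and 9.91 on these arrays against 9.60 to 10.27 on the rest. Neocortex genes were lowest on the same 3 arrays, at 9.24, 9.32 and 9.59 against 9.75 to 10.32 on the other 5 hippocampus arrays. Their part in the levels of the 8 genes was not tested.

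**Figure D4:**
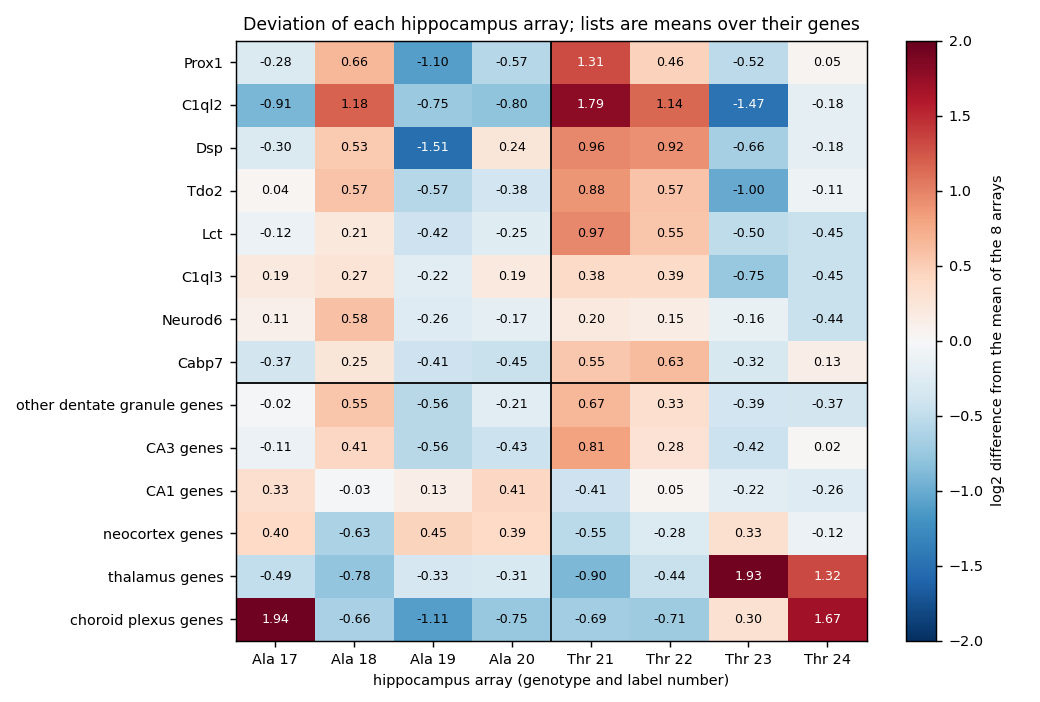
Log2 difference of each of the 8 hippocampus arrays (columns, genotype and label number) from their mean, for the 8 genes (upper rows) and for the mean of other gene lists (lower rows); red is higher and blue lower. Arrays 18, 21 and 22 are red in all 8 genes and in the dentate and CA3 lists, arrays 19 and 23 are blue in all 8, and the thalamus list is red on Thr arrays 23 and 24.

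The genotype differences depended on which of these arrays were counted. Thr arrays 23 and 24 were the 2 with high thalamus genes, 9 of 10 of which were at their regional maximum on array 23. The choice to leave both out rests on thalamus levels in these same data, and it removes Thr arrays only. Without both, C1ql2 differed by -1.79 (unadjusted p = 0.000327, adjusted p = 0.650 in limma). Prox1 differed by -1.21, Dsp by -1.20, Lct by -0.90, Cabp7 by -0.83 and Tdo2 by -0.81. That fit leaves Thr arrays 21 and 22, which were the 2 highest Thr arrays for each of the 8 genes, and 0 of the 8 passed. Its p-values rest on spread pooled over regions. The hippocampal SD of C1ql2 over all 4 arrays was 1.00 in Ala and 1.45 in Thr. The adjusted p of C1ql2 ranged from 0.650 to 1.00 over all alternatives. With the mean thalamus level as a covariate, the differences were -1.42 for C1ql2 and -1.04 for Prox1, and again 0 passed. Leaving out single hippocampus arrays gave C1ql2 differences from -1.24 without Thr array 23 to -0.15 without Thr array 21, and Prox1 differences from -0.98 without Ala array 18 to -0.32 without Thr array 21.

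Other genes of the circuit were not called between genotypes in the hippocampus either, with 0 called in each of the 20 lists. The dentate granule list had a median difference of -0.15 with 11 of 15 negative and the CA3 list -0.40 with 7 of 7 negative. The CA1 list had 0.38 with 1 of 8 negative. Over all genes the median was 0.01 and 48.9% were negative. Thalamus genes had a median of -0.94, with 8 of 9 negative.

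Outside the hippocampus, Dsp, Tdo2 and Lct were below background on all 32 arrays, and C1ql2 on all but 2. Genotype counts over the 8 genes in those regions therefore include genes without a measured level. In the amygdala, 18 of 14978 genes (0.12% called) passed between genotypes and 0 of the 8 genes did. At an unadjusted p under 0.05 there were 2 of the 8, Neurod6 and Cabp7, and 798 in all. Neurod6 read 12.82, 13.54, 10.26 and 11.16 on Ala arrays 1 to 4 and 11.50, 9.39, 9.64 and 9.88 on Thr arrays 5 to 8, a difference of 1.84 ± 0.72 (unadjusted p = 0.0148, adjusted p = 0.807, limma). Cabp7 read 7.64, 10.93, 7.64 and 8.01 in Ala and 7.80, 7.22, 7.85 and 7.78 in Thr, a difference of 0.89 ± 0.40 (unadjusted p = 0.0302, adjusted p = 0.880, limma). C1ql2 read 5.07, 7.72, 5.30 and 6.15 in Ala and 5.23, 5.04, 5.38 and 5.14 in Thr, a difference of 0.86 ± 0.45. In each case Ala array 2 was the highest of the 8, and Prox1 had its highest value on it too, at 9.55 against 7.99 to 8.91.

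The same Ala array 2 had the highest mean of 7 CA3 genes (8.93 against 8.04 to 8.91), of 8 CA1 genes (10.14 against 8.79 to 9.52) and of 12 choroid plexus genes (7.72 against 5.18 to 6.01). Of the choroid plexus genes, 9 of 12 were at their regional maximum there and 4 were below background. The 15 dentate granule genes did not follow, with a mean of 8.51 on it against 8.50 to 8.83. Dsp and Lct stayed below background on this array, at 3.78 and 3.70. Without Ala array 2, an alternative chosen after seeing the data, the difference of Cabp7 was 0.10 ± 0.27, that of C1ql2 0.31 ± 0.44 and that of Neurod6 1.31 ± 0.75 (adjusted p = 0.896, limma). Leaving out single amygdala arrays gave Neurod6 differences of 1.31 to 2.40, with a smallest adjusted p of 0.448 in limma. The Neurod6 value on Ala array 1, 12.82, was the second highest, and that array had a striatum gene mean of 12.14 against 8.69 to 10.26 on the other 7, and a cerebellum gene mean of 8.06 against 6.00 to 6.39. Prox1 (8.06) and Cabp7 (7.64) were not high on array 1. What part these tissues had in the differences was not tested.

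In the striatum, 12 genes (0.0801% called) passed between genotypes and none of the 8 was among them. The smallest adjusted p of the 8 was 0.950 in limma, for C1ql2, which was below background on every striatum array. At an unadjusted p under 0.05 there were 0 of the 8 and 920 in all. C1ql3 and Neurod6 had their widest spread there. Neurod6 read 10.55, 5.74, 8.17 and 5.80 on Ala arrays 33 to 36 and 6.48, 7.99, 10.20 and 7.95 on Thr arrays 37 to 40. C1ql3 read 10.35, 7.05, 8.20 and 6.81 in Ala and 5.89, 8.13, 9.89 and 9.12 in Thr. Ala array 33 and Thr array 39 were thus highest for both genes, and they also had the highest mean of 7 excitatory neuron transcription factors, 10.27 and 10.38 against 8.86 to 9.76. The neocortex list did not single them out, at 9.53 and 9.57 against 9.07 to 9.78. The genotype differences were -0.59 ± 0.72 for Neurod6 and -0.15 ± 0.55 for C1ql3.

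**Figure D5:**
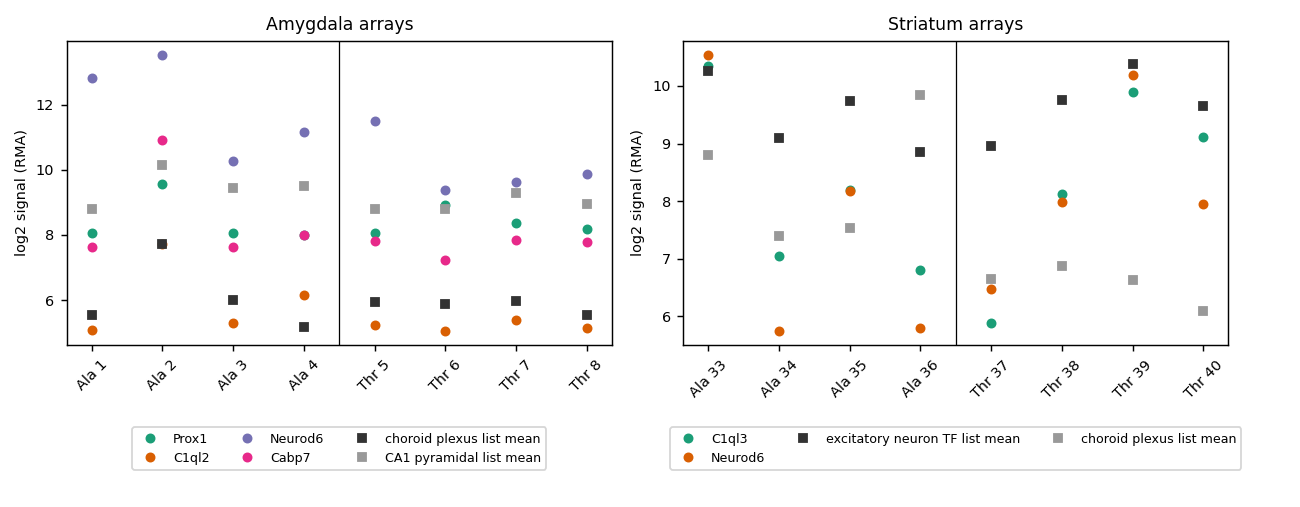
Log2 signal (vertical axis) of selected genes (circles) and list means (squares) on the 8 amygdala arrays (left) and the 8 striatum arrays (right), with Ala left of the line; on Ala amygdala array 2 the C1ql2 circle lies under the choroid plexus square, both at 7.72. C1ql2, Cabp7, Prox1 and Neurod6 are highest on Ala amygdala array 2 together with the choroid plexus and CA1 means, and C1ql3 and Neurod6 are highest on striatum arrays Ala 33 and Thr 39 together with the transcription factor mean.

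In cerebellum and prefrontal cortex 0 of 14978 genes passed between genotypes (0% called), with 291 and 349 at an unadjusted p under 0.05 and none of the 8 among them. The widest difference in the cerebellum was that of Neurod6 (0.80 ± 0.72), where Ala array 12 read 9.11 and the other 7 arrays 6.44 to 7.18. On that array the excitatory transcription factors averaged 9.11 against 7.60 to 8.06, and 9 of 10 neocortex genes were above their cerebellum mean. In the prefrontal cortex, differences ran from -0.32 for Cabp7 to 0.38 for C1ql3. Prox1 in the cerebellum, where it was second highest, differed by -0.16 ± 0.34, with values of 11.20 to 11.67 in Ala and 11.47 to 11.95 in Thr.

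Averaged over the 5 regions, 3 genes (0.02% called) passed and 0 of the 8 did. For C1ql2, Dsp, Tdo2 and Lct that average is mostly over regions where they were below background. The average differences ran from -0.18 ± 0.15 for Prox1 to 0.40 ± 0.32 for Neurod6, with adjusted p from 0.990 to 1.00 in limma. A test of whether the genotype difference varied between regions called 6 genes (0.0401% called) and none of the 8; Cabp7 had the smallest unadjusted p of the 8, 0.121 (adjusted p = 1.00).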

How the data were processed

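Total RNA of each region was biotin-labelled and hybridised to Affymetrix arrays, per the labels' protocols. The authors deposited log2 signals made with RMA, per the submitters' processing notes; the software version is not given in the sources used here. That method already normalizes the arrays, whose medians lay between 6.12 and 6.32, and no scaling was added. No 2 arrays were identical. Rows were named from the platform annotation (19572 rows, all matched by gene identifier to GRCm38.p6), and the row with the highest mean was kept for each of 19505 genes. Genes above log2 4.60, the 30th percentile, on at least 4 arrays were tested, 14978 in all, the 8 genes of the report included.

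A mean was fitted for each of 10 groups with limma 3.58.1 in R 4.3.3 (lmFit, eBayes with a trend, 30 residual degrees of freedom), and p-values were Benjamini-Hochberg adjusted over all genes tested. The fit pools the spread over regions, and precision is limited by how many arrays there are. The 9 genes and the 20 lists were chosen with earlier results of these data known. Named genes were the 8, the 2 genes nearest to each over the group means, and up to 4 genes per list with the widest hippocampal difference; Calb1, Adgrb3 and Grik2 were named after their values were seen. Alternatives covered the row per gene, the filter, scaling, the variance estimate, array weights, the thalamus level and leaving out arrays. Only the genotype comparison in the hippocampus was tried on simulated data, with differences planted in the Ala arrays and noise independent between arrays.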

Additional observations from a re-analysis of the deposited data

Results flagged for a closer look

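Dixon's test was applied to each of the 8 genes in each of the 10 groups of 4 arrays, and in 8 of these 80 checks an array stood apart from the others of its group. Chance would give about 1 in 20, but the 8 genes share the same arrays, so the checks are not independent. On Ala amygdala array 2, Prox1 read 9.55, with the next array at 8.07, and Cabp7 10.93, with the next at 8.01. On Ala hippocampus array 18, C1ql2 read 10.51, with the next array at 8.58, and Cabp7 13.15, with the next at 12.53. C1ql3 was low on Ala hippocampus array 19, at 13.72 against 14.13 for the next array. Cabp7 was low on Thr amygdala array 6, at 7.22 against 7.78. Prox1 read 10.19 on Thr striatum array 38, with the next at 9.33. Dsp read 4.65 on Ala striatum array 36, with the next at 3.55, and both were below background.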

How the results depend on the processing

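Under every alternative run, 0 of the 8 genes were called between genotypes in any region, on average or in the test of variation between regions. The 34 circuit genes called in the hippocampus, counting both higher and lower, numbered 34 to 41. In the hippocampus, C1ql3 and Neurod6 turned to -0.24 and -0.45 with the thalamus level as a covariate, and to -0.27 and -0.11 without Thr arrays 23 and 24. Leaving out 1 array at a time gave -0.048 to 0.234 for Neurod6 and -0.535 to 0.0923 for Tdo2 in the hippocampus. For the average over regions it gave -0.158 to 0.0595 for C1ql2, -0.0461 to 0.221 for C1ql3, -0.175 to 0.0466 for Cabp7, -0.119 to 0.0254 for Dsp and -0.0816 to 0.0163 for Lct. The cause was not tested. The median of all hippocampal differences was 0.01 as deposited and 0.00 after quantile normalization. With a filter at log2 6 on 4 arrays, Tdo2 was not tested. No paired analysis was possible because the label numbers run from 1 to 40 without repeats. Dsp, Tdo2 and Lct are limited by their signal over background.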

Other observations

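The CA2 and mossy cell lists, singled out after their values were seen, had no gene called higher in the hippocampus than in the other regions. Between genotypes in the hippocampus, 6 of 6 CA2 genes had negative Ala minus Thr differences, beside 48.9% of all genes. Their median was -0.37, beside 0.01 over all genes, and 0 were called in limma. Necab2, a calcium-binding protein, differed by -0.70 and Pcp4, a calmodulin-binding protein, by -0.54. Of 5 mossy cell genes 4 were negative and 0 were called. Calb2, which encodes calretinin, had the widest difference of them, -1.81 (adjusted p = 0.721 in limma). Thalamus genes were high on Thr arrays 23 and 24 of the same comparison, and their part in these values was not tested.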
